A study of Mus musculus and Rattus norvegicus with 53 samples.

Results

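DNA replication and S-phase genes were followed in mouse Schwann cells (SCs), the glia of peripheral nerves, after the sciatic nerve was cut. The group holds 50 genes, chosen by symbol and not by their values, although earlier results of these data were known by then. All 50 were among the 24016 genes of the mouse counts. All 50 also passed the filter on low counts in both experiments, although in the pooled nerves Mcm10, Pole and E2f2 would not have passed without the bridge libraries, E2f2 not without the distal and Cdc7 not without the intact ones. SCs carried a tdTomato reporter (genotype label tdTomato+) switched on by a Cre transgene of the Schwann cell lineage, and were sorted on tdTomato from male and female mice aged 6 to 8 weeks. Intact SCs (iSCs) came from the uninjured nerve of the other side, distal SCs (dSCs) from the stump beyond the cut, and bridge SCs (bSCs) from the new tissue between the stumps.

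A first experiment held 4 libraries each of iSCs, dSCs and bSCs, taken 6 days after transection, each drawing on nerves of 3 mice. A second held 35 libraries of single nerves: 5 of iSCs, 3 of dSCs on days 1 and 2, and 3 each of dSCs and bSCs on days 4, 6, 8 and 10. All mice of these groups carried the reporter, and every injured group carried the same cut.

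A cell copies its genome once per division. The origin recognition complex marks the start sites, Cdc6 and Cdt1 load the MCM helicase onto them while geminin (Gmnn) blocks reloading, and cyclin E and the Cdc7 and Dbf4 kinase set the helicase going with Cdc45 and the GINS proteins. Polymerases then copy both strands with the sliding clamp PCNA, and enzymes of nucleotide synthesis supply the building blocks. E2F factors switch on many of these genes at the G1/S boundary. SCs of an adult nerve are quiescent, and they re-enter the cell cycle after injury.

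The promoters of the members are shown here because many hold the letters that E2F factors bind. The motifs searched were TTTCCCGC, TTTGGCGC, TTTCGCGC and TTTGCCGC on both strands, in windows from 250 bases before to 50 bases after each start site (RefSeq, build GRCm38.p6, matched by symbol). Of the 50 members, 42 had an entry, and 16 of these 42 (38.1%) held a match, beside 704 of 27025 symbols in the table (2.6%). The CCAAT letters, searched on both strands as well, stood in 25 of the 42 (59.5%) and in 41.1% of all symbols. The windows below lie before the start sites of 3 MCM genes and of Uhrf1, with matches in capitals, each read on its gene's strand.
Mcm5 (chr8:75109336-75109387, plus strand): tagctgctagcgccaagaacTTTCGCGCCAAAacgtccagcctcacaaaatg
Mcm6 (chr1:128359725-128359835, minus strand): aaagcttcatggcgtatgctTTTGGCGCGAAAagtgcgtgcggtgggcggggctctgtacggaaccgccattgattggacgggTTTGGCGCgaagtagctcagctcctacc
Mcm7 (chr5:138172021-138172068, minus strand): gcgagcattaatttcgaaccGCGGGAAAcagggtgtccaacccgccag
Uhrf1 (chr17:56304108-56304155, plus strand): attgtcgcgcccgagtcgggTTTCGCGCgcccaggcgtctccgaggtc
The 12 capitals of Mcm5, and the first 12 of Mcm6, are 2 of the motifs on opposite strands that overlap. Mcm2, Tk1, Rrm2, Rfc5 and Tyms held none of the E2F motifs in their windows, nor did Orc6, Rfc4, Rpa1, Fen1, Rrm1, Pcna and E2f1. Of the members called higher in bSCs than in dSCs below, only Mcm3, Mcm6, Mcm7 and Uhrf1 held a match.

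Depth was similar in both experiments, with 11435463 to 22617054 counts on genes per pooled library and 9240883 to 22426128 per single-nerve library. Fewer genes were detected in pooled bSCs (11735 to 12606) than in pooled iSCs (13600 to 14987). All 6 Schwann cell markers used were detected, summing to between 2110.3 and 7954.6 CPM (counts scaled to a common library total with TMM factors) in pooled iSCs, 1358.5 to 3202.0 in dSCs and 1228.1 to 2459.7 in bSCs. Markers of other cells were present in the sorted libraries. Macrophage markers (13 of 14 listed were in the counts) summed to 257.0 to 6211.2 CPM in iSCs, 10669.4 to 17743.9 in dSCs and 2594.9 to 8155.4 in bSCs, so that dSCs held the highest sums. Fibroblast markers (6 of 6) summed to 8703.8 to 48028.2, 28854.0 to 41945.7 and 13133.6 to 26521.9 CPM in the same order. Neutrophil markers (3 of 4) summed to 0.833 to 2.81, 32.6 to 43.8 and 8.72 to 25.7. Endothelial markers (6 of 6) summed to 123.6 to 564.6, 111.4 to 243.4 and 142.6 to 700.1. Pericyte and smooth muscle markers (5 of 5) summed to 250.4 to 1567.9, 163.6 to 226.4 and 261.7 to 1023.5. These last sums were higher in every bSC library than in any dSC library. Of the T cell markers (4 of 5 listed were in the counts), Cd3d, Cd3e and Cd3g were at 0 in every pooled bSC library. Cd2 was not, and the 4 summed to 0.0 to 5.93 CPM there, 0.0 to 5.65 in iSCs and 0.0 to 10.9 in dSCs. The part of other cell types in the results below was not tested. In sorted bulk samples, a larger share of cells in S phase and more RNA per cell cannot be told apart.

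Most called members were called in the bridge. The median member was 2.23 higher in pooled bSCs than in iSCs on the log2 scale, against a median of -0.16 over all 13751 genes tested, and 48 of the 50 had a difference above 0. By edgeR's quasi-likelihood test with Benjamini-Hochberg adjustment over all genes (adjusted p under 0.05), 23 of the 50 rose and none fell, where 7.24% of all genes were called higher and 7.46% lower. In 29 of the 50 every bSC library lay above every iSC library (10.5% of all genes), and 29 were higher at an unadjusted p under 0.05 (12.9%). Mcm10, Pole and E2f2 passed the filter on low counts only with the bSC libraries, so their high bSC values add no support. They are among the 48 above 0, and Mcm10 is among the 29 without overlap, but none of them is among the 23 called. With the pool of mice as a block, 9 of the 50 were called (3.57% of all genes). Leaving out 1 library gave 13 to 22 calls, with the lowest numbers without bSC pool 5 (13) and without iSC pool 4 (14).

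Far fewer members differed between dSCs and iSCs, where the median difference was 0.50 beside -0.02 over all genes. Tk1, Uhrf1, Tyms and Dnmt1 rose and no member fell, 4 of 50 beside 2.63% of all genes called higher and 2.69% lower. In 7 members every dSC library lay above every iSC library (7.56% of all genes), and 11 were higher at an unadjusted p under 0.05 (8.67%). With the pool as a block Tk1 and Uhrf1 remained (0.887% of all genes were called higher), and in a fit of iSC and dSC libraries alone Tk1 did. Without any 1 of iSC pools 1 and 2 or dSC pools 1, 2 and 5 the count was 1, and without iSC pool 4 or dSC pool 3 it was 2. Without iSC pool 5 it was 5, of which 1 was lower in dSCs. Tk1 was called in all 8 such fits. Among libraries deposited as 2 lanes, the median difference was -0.02, with 25 members above 0, and among those deposited as 1 lane (1 dSC and 2 iSC libraries) it was 0.97 with 40 above 0.

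Between bSCs and dSCs the median difference was 1.53, beside -0.07 over all genes, and 48 of 50 differences were above 0. Called higher in bSCs were 12 members, Orc6, Mcm3, Mcm6, Mcm7, Rfc4, Rfc5, Rpa1, Fen1, Rrm1, Rrm2, Tk1 and Uhrf1, where 2.31% of all genes were. None was called lower, where 3.11% of all genes were, and 25 were higher at an unadjusted p under 0.05 (9.36%). In 23 of the 50 every bSC library lay above every dSC library, beside 6.77% of all genes. Mcm10, Pole and E2f2, which passed the filter only with the bSC libraries, are among the 48 above 0. None of them is among the 12 called or these 23. The pool block left 5 calls (Mcm3, Rfc5, Fen1, Rrm1 and Uhrf1), where 0.705% of all genes were called. Leaving out 1 library left 2 to 12, with 2 calls without bSC pool 5 or dSC pool 5, 3 without dSC pool 1 or dSC pool 2 and 4 without bSC pool 3. Rfc5 and Rrm1 were called in all 8 of these fits. Within 2-lane libraries the median difference between bSCs and dSCs was 1.73, and between the only 2 libraries of 1 lane it was 1.49. bSC pool 5 was the highest bSC library for 26 of the 50 members.

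**Figure D1:**
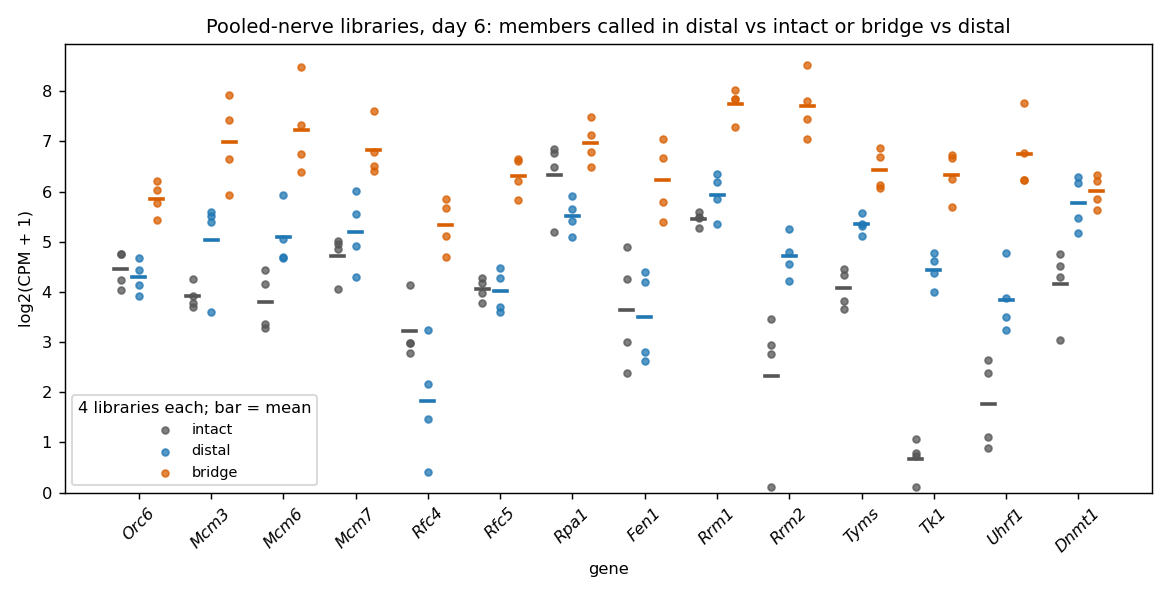
Level of the 14 members called in dSCs against iSCs or in bSCs against dSCs, as log2(CPM + 1), with a point for each pooled library and a bar for the mean of 4. Every bSC library lies above every dSC library for all of them except Dnmt1, and Tk1 is near 0 in iSCs.

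**Figure D2:**
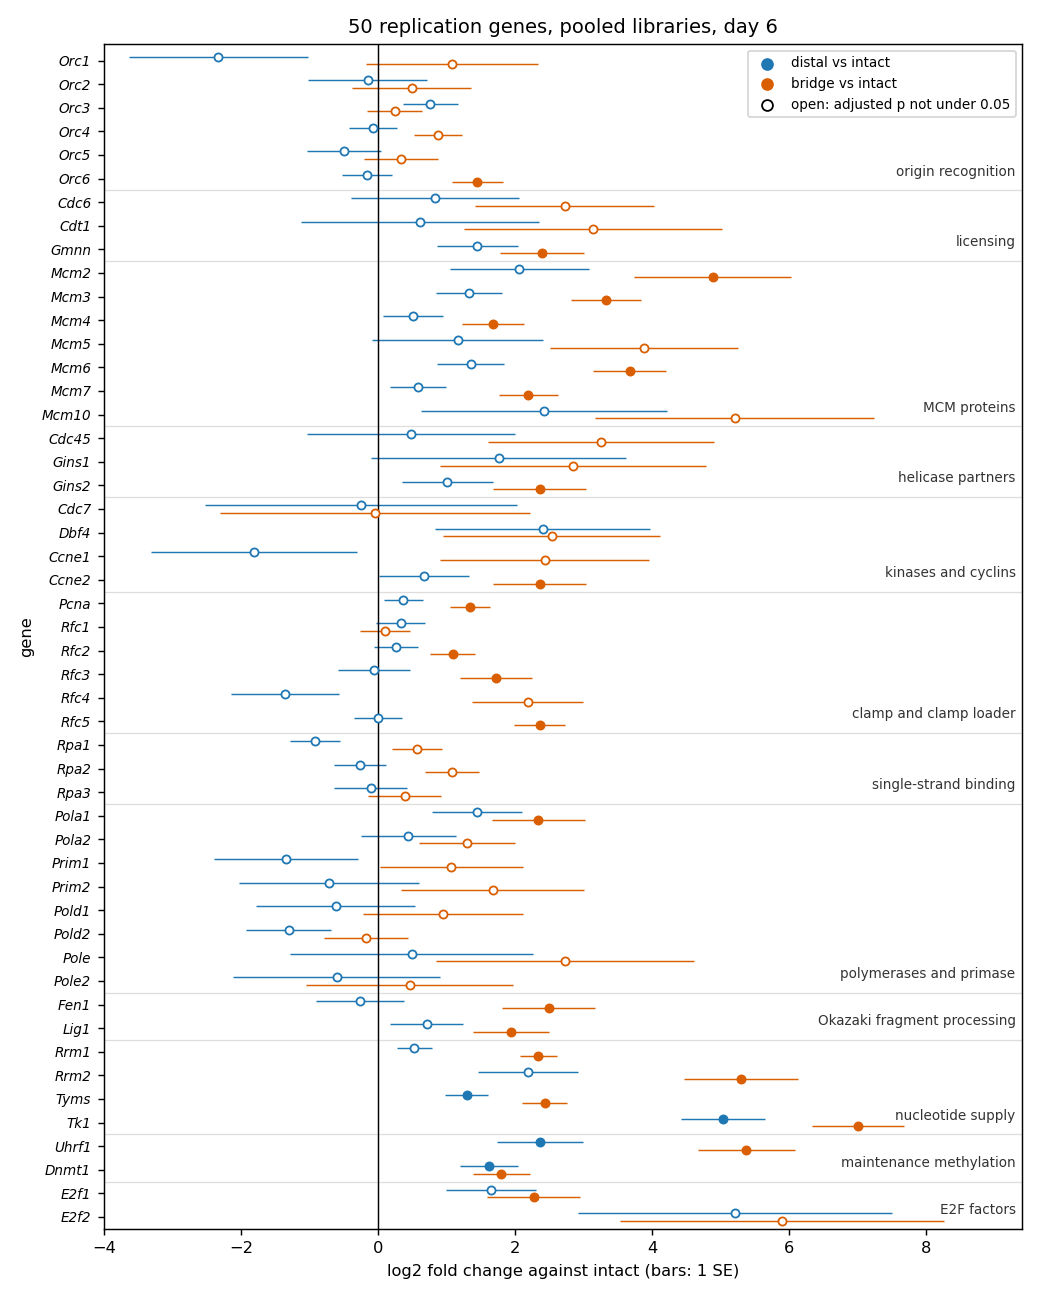
Log2 fold change of each of the 50 members in dSCs (blue) and bSCs (orange) against iSCs, with 1 SE, grouped by role. Filled points passed an adjusted p of 0.05, and most orange points lie to the right of the blue ones.

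Values below are CPM in single libraries, given in the order of the pools: 1, 2, 4 and 5 for iSCs, and 1, 2, 3 and 5 for dSCs and bSCs. CPM is not divided by gene length, so levels were compared between libraries and not between genes.

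Of the 6 genes of the origin recognition complex, only Orc6 rose in bSCs. It was at 21.3 ± 5.52 CPM (SD, n = 4) in iSCs, 19.0 ± 4.53 in dSCs and 58.1 ± 13.3 in bSCs, and passed against both (adjusted p = 0.0189 and 0.0257 by edgeR). Orc4 measured 59.0, 53.6, 30.1 and 74.0 in iSCs, 57.0, 67.9, 43.2 and 38.9 in dSCs and 149.5, 112.9, 73.7 and 63.0 in bSCs. The bSC libraries of Orc4 overlapped those of both other regions, and its difference from dSCs of 0.95 ± 0.35 (SE, log2) did not pass. Orc3 had a lower mean in bSCs than in dSCs, with 86.1, 77.3, 86.8 and 69.0 in dSCs and 58.2, 42.5, 37 and 84.1 in bSCs, and did not pass (log2 difference -0.53 ± 0.40). Its iSC libraries were at 60.4, 71.1, 39.3 and 17.1. Orc1, the large subunit, was low throughout, at 3.74, 2.59, 1.29 and 4.11 in iSCs, 0.459, 0, 0.591 and 1.27 in dSCs and 3.77, 6.88, 2.23 and 12 in bSCs. All dSC libraries of Orc1 lay below all others, although neither comparison passed (adjusted p = 0.44 against iSCs and 0.161 against bSCs by edgeR).

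Among the licensing factors, Gmnn rose 5.26-fold in bSCs (log2 2.39 ± 0.61, adjusted p = 0.0191 by edgeR). Its libraries were at 6.16, 5.65, 4.85 and 3.47 CPM in iSCs, 12, 19.0, 10.3 and 13.9 in dSCs and 11.8, 22.4, 44.6 and 27.2 in bSCs. The iSC libraries of Gmnn lay below all of the rest, while dSCs and bSCs overlapped. The loaders Cdc6 and Cdt1 had differences of 2.72 ± 1.3 and 3.13 ± 1.88 in bSCs against iSCs, neither of which passed.

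The MCM genes, which encode the subunits of the replicative helicase, together with Mcm10, which acts when the loaded helicase is activated, had a median difference of 3.67 in bSCs against iSCs and of 1.33 in dSCs against iSCs. Mcm2, Mcm3, Mcm4, Mcm6 and Mcm7 rose in bSCs against iSCs, and none of the 7 passed in dSCs. Mcm7 was at 30.2, 31.3, 27.9 and 15.6 CPM in iSCs, 18.7, 29.1, 63.3 and 46.0 in dSCs and 83.9, 89.9, 109.6 and 194.6 in bSCs, so that only bSCs stood apart. Mcm6 measured 16.8, 8.7, 9.32 and 20.6 in iSCs, 32.1, 24.8, 59.6 and 24.6 in dSCs and 82.4, 106.2, 159.8 and 355.8 in bSCs. The 3 regions did not overlap for Mcm6, and the bSC level was 12.7-fold that of iSCs (log2 3.67 ± 0.53, adjusted p = 0.00072 by edgeR) and 4.99-fold that of dSCs (2.32 ± 0.50, adjusted p = 0.0201). Mcm3 was at 14.3 ± 2.79 CPM in iSCs, 36.0 ± 16.8 in dSCs and 143.1 ± 80.6 in bSCs, and passed in bSCs against both. Mcm5 was uneven in dSCs (0.153, 0, 33.9 and 23.0 CPM) and lay between 66.1 and 132.6 in bSCs, and its difference of 3.88 ± 1.37 from iSCs had an adjusted p of 0.0753. Mcm10 was at 0, 2.14, 0.0757 and 0 in iSCs, 0, 8.81, 0.0739 and 3.36 in dSCs and 5.83, 16.7, 25.7 and 36.1 in bSCs. Its bSC libraries exceeded all iSC libraries, and no comparison of it passed. Since Mcm10 passed the filter on low counts only with the bSC libraries, its high bSC values add no support.

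Of the helicase partners, Gins2 rose in bSCs (log2 2.36 ± 0.68, adjusted p = 0.0338 by edgeR against iSCs). Its CPM were 4.52, 10.2, 2.8 and 12.5 in iSCs, 26.5, 9.28, 16.5 and 7.98 in dSCs and 16.1, 26.0, 51.7 and 60.6 in bSCs. The dSC libraries of Gins2 overlapped both other regions. Cdc45 was higher in every bSC library (22.7 to 64.4) than in any other (0 to 11) but did not pass, with a difference from iSCs of 3.25 ± 1.65.

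Of the genes that fire origins, Ccne2, a cyclin E, rose in bSCs against iSCs (log2 2.36 ± 0.68, adjusted p = 0.0327), at 13.6, 17.8, 8.94 and 3.71 CPM in iSCs, 30.3, 5.25, 25.3 and 9.03 in dSCs and 20.6, 75.4, 72.5 and 57.6 in bSCs. Every bSC library of Ccne2 exceeded all iSC libraries. Ccne1, the other cyclin E, was at 2.11, 1.88, 0.227 and 21.2 in iSCs, 0, 0.0673, 6.8 and 0.373 in dSCs and 23.2, 36.4, 33.6 and 43.5 in bSCs. It had the largest log2 difference between bSCs and dSCs of the 50 members (4.23 ± 1.65, adjusted p = 0.147), and no library of bSCs overlapped the others. The S-phase kinase Cdc7 was at 17.4, 8.44, 5.98 and 1.69 in iSCs, 0, 0, 13.4 and 14.8 in dSCs, and 0, 32.7, 0 and 0 in bSCs. Its activator Dbf4 was at 0, 1.58, 2.65 and 8.39 in iSCs, 34.6, 12.8, 1.7 and 17.7 in dSCs and 15.0, 0, 30.3 and 27.6 in bSCs. Libraries at 0 beside libraries well above it left both genes without a direction between bSCs and dSCs (0.22 ± 2.26 for Cdc7 and 0.13 ± 1.49 for Dbf4), and that sign turned with the pool block and with a term for lanes.

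PCNA, the sliding clamp, and 3 subunits of its loader rose in bSCs against iSCs (Pcna, Rfc2, Rfc3 and Rfc5). Pcna was at 81.6, 92.9, 68.7 and 65.8 CPM in iSCs, 151.5, 63.1, 72.8 and 110.8 in dSCs and 161.3, 194.7, 192.2 and 236.2 in bSCs. The bSC libraries lay above all others, 2.54-fold above iSCs (log2 1.34 ± 0.29, adjusted p = 0.0071 by edgeR). A pair of Pcna pseudogenes is annotated in the mouse genome, and reads that also match them cannot be assigned with certainty. Rfc5 was at 15.8 ± 2.5 CPM in iSCs, 15.7 ± 4.99 in dSCs and 80.9 ± 20.3 in bSCs. It thus differed between bSCs and dSCs (adjusted p = 0.00482 by edgeR), with a log2 difference of dSCs from iSCs of 0.00 ± 0.35. Rfc4 was at 6.86, 6.92, 16.6 and 5.89 in iSCs, 1.76, 0.336, 8.49 and 3.51 in dSCs and 24.9, 33.6, 49.8 and 56.4 in bSCs, and passed against dSCs only (log2 3.54 ± 0.86, adjusted p = 0.0317). Rfc1, the large subunit, differed little, at 44.7, 79.0, 32.8 and 38.5 in iSCs, 80.3, 51.2, 40.8 and 72.7 in dSCs and 76.1, 40.5, 48.2 and 43.7 in bSCs.

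The RPA genes, whose products coat single-stranded DNA, had the smallest median difference between bSCs and iSCs of the 12 roles (0.57). Rpa1 was at 89.1, 114.5, 108.1 and 35.7 CPM in iSCs, 59.2, 49.6, 41.7 and 33.1 in dSCs and 88.7, 109.3, 178.5 and 139.6 in bSCs. Its bSC libraries exceeded all dSC libraries (log2 1.49 ± 0.36, adjusted p = 0.0325 by edgeR) and overlapped those of iSCs.

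Of the 8 polymerase and primase genes, Pola1, the catalytic subunit of polymerase alpha, rose in bSCs against iSCs (log2 2.34 ± 0.68, adjusted p = 0.0335 by edgeR), and none passed in the other comparisons. Pold2, a subunit of polymerase delta, was at 48.7, 58.4, 42.7 and 45.5 CPM in iSCs, 13.9, 2.69, 38.8 and 24.0 in dSCs and 18, 34.4, 56.2 and 64.4 in bSCs. Its dSC libraries were all below those of iSCs, with a log2 difference of -1.3 ± 0.62 that did not pass (adjusted p = 0.328 by edgeR). The primase gene Prim1 had a difference of -1.34 ± 1.05 in dSCs, with 27.2, 23.3, 5.68 and 37.1 in iSCs, 0, 8.27, 11.6 and 17.1 in dSCs and 12.3, 38.8, 85.4 and 59.5 in bSCs.

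The enzymes that finish Okazaki fragments, the flap endonuclease Fen1 and the ligase Lig1, both rose in bSCs against iSCs. Lig1 was at 13.0, 11.7, 3.79 and 27.4 CPM in iSCs, 26.9, 16.1, 29.3 and 19.2 in dSCs and 48.8, 35.7, 48.4 and 82.1 in bSCs. Fen1 was at 14.5 ± 11.2 in iSCs, 12.1 ± 7.64 in dSCs and 81.7 ± 41.5 in bSCs, and also passed against dSCs (adjusted p = 0.0354 by edgeR).

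All 4 genes of nucleotide supply rose in bSCs against iSCs. Rrm1 and Rrm2 encode the subunits of ribonucleotide reductase, Tyms makes thymidylate, and Tk1 salvages thymidine. Tk1 had the largest called differences from iSCs of the group: 1.09, 0.661, 0.0757 and 0.726 CPM in iSCs, 26.2, 23.5, 19.9 and 15.0 in dSCs and 74.7, 50.7, 104.5 and 100.1 in bSCs. The 3 regions did not overlap for Tk1, which was 32.7-fold higher in dSCs than in iSCs (log2 5.03 ± 0.61, adjusted p = 0.000666 by edgeR) and 3.90-fold higher in bSCs than in dSCs (1.96 ± 0.52, adjusted p = 0.0463). Rrm2 was at 6.71, 10.0, 5.83 and 0.0807 in iSCs, 17.6, 26.8, 37.2 and 22.5 in dSCs and 173.8, 131.4, 223.6 and 365.8 in bSCs. All 3 regions of Rrm2 were again apart, and bSCs exceeded dSCs 8.60-fold (log2 3.10 ± 0.75, adjusted p = 0.0309 by edgeR). Rrm1 was at 44.3, 43.7, 47.0 and 37.7 in iSCs, 39.6, 71.7, 80.5 and 57.0 in dSCs and 154.4, 227.6, 229.6 and 260.1 in bSCs. dSCs overlapped iSCs for Rrm1, and bSCs stood 3.50-fold above dSCs (log2 1.81 ± 0.26, adjusted p = 0.00405). Tyms was at 16.3 ± 4.55 CPM in iSCs, 39.9 ± 5.37 in dSCs and 87.9 ± 24.6 in bSCs, and a Tyms pseudogene is counted as a gene of its own.

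Uhrf1 and Dnmt1 copy DNA methylation onto the new strand, Uhrf1 by finding hemimethylated sites and Dnmt1 by methylating them. Both rose in dSCs and in bSCs against iSCs. Uhrf1 was at 1.17, 0.865, 5.23 and 4.19 CPM in iSCs, 8.49, 10.3, 26.3 and 13.7 in dSCs and 73.8, 74.0, 108.3 and 215.7 in bSCs, with no overlap between regions and 8.03-fold more in bSCs than in dSCs (log2 3.01 ± 0.63, adjusted p = 0.0185 by edgeR). Dnmt1 was at 21.8, 26.1, 7.2 and 18.6 in iSCs, 70.5, 77.6, 43.4 and 35.1 in dSCs and 56.8, 48.4, 79.2 and 72.7 in bSCs. dSCs and bSCs overlapped for Dnmt1, and the log2 difference between them was 0.18 ± 0.41. Whether the changes of both genes differ was not tested.

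Of the activator E2F genes, E2f1 rose in bSCs against iSCs (log2 2.27 ± 0.68, adjusted p = 0.0387 by edgeR), with 6.16, 1.12, 11.4 and 4.44 CPM in iSCs, 20.3, 15.8, 11.3 and 24.9 in dSCs and 24.2, 22.9, 34.5 and 29.6 in bSCs. E2f2 was at 0.468, 0, 0 and 0 in iSCs, 12.5, 0, 2.22 and 3.51 in dSCs and 18.4, 4.46, 0 and 6.3 in bSCs. With a library at 0 in each injured region, no comparison of E2f2 passed.

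Other genes of the same pathway were counted for comparison. Of 51 further replication genes, 4 rose in dSCs and 11 in bSCs against iSCs, beside 2.63% and 7.24% of all genes. In bSCs against dSCs 2 were higher, beside 2.31% of all genes, and the medians in this order were 0.45, 1.23 and 1.05. Among the 51, Esco2, which acetylates cohesin in S phase, was at 0 in all iSC libraries and at 9.49, 16.1, 7.46 and 1.79 CPM in dSCs. Clspn, a mediator of the replication checkpoint, was at 7.5, 0, 9.23 and 4.25 in dSCs and at or near 0 in iSCs (at most 0.0757). Dtl, which targets Cdt1 for destruction, did not pass in dSCs, at 13.4, 0, 0.0739 and 8.95. The smallest differences in dSCs were those of Recql4, Gins3 and Ung (-2.66 ± 2.11, -1.81 ± 1.92 and -1.21 ± 1.16), a helicase, a GINS subunit and a uracil glycosylase. None of the 15 further E2F, pocket protein and related genes rose in any of the 3 comparisons by edgeR. At an unadjusted p under 0.05, 1, 3 and 4 of them were higher, beside 8.67%, 12.9% and 9.36% of all genes. In bSCs against iSCs 1 of them fell, where 7.46% of all genes were called lower.

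Mitosis genes were counted as well. Of 14 such genes, 12 rose in dSCs and 13 in bSCs against iSCs (2.63% and 7.24% of all genes), with medians of 3.96 and 5.17. Between bSCs and dSCs 1 was called (2.31% of all genes, median 1.43), and 6 were higher at an unadjusted p under 0.05 (9.36% of all genes). All but Mki67 had a difference of bSCs from dSCs above 0 (13 of 14). Mki67, the proliferation marker, was at 74.9, 36.9, 23.6 and 51.2 CPM in dSCs, 45.2, 15.1, 58.4 and 64.2 in bSCs and 5.3, 1.63, 1.67 and 2.42 in iSCs. It was thus 16.9-fold higher in dSCs than in iSCs (adjusted p = 0.00256 by edgeR) with a log2 difference of -0.03 ± 0.55 between bSCs and dSCs. The difference between mitosis and replication genes was not itself tested.

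The time course of single nerves addressed when the genes rise and how long they stay up. Among the single iSC libraries, replicates 0 and 1 stood apart, with 10572 and 10042 genes detected against 14045 to 15060 in the others, and with 15 and 21 of the 50 members at 0 against 0 to 2. Results against iSCs are therefore given also without both. Few genes were also detected in 1 dSC library of day 1 (replicate 1, 11138 genes with 9 members at 0) and 1 of day 2 (replicate 0, 10306 genes with 10 members at 0), against 12136 to 15815 in the other dSC libraries. The median member level was 1.68 and 2.57 log2 CPM in iSC replicates 0 and 1 and 3.76 to 3.98 in the other iSC libraries. It was 4.22 to 4.88 on day 1, 4.2 to 5.5 on day 2, 4.5 to 5.25 on day 4, 3.82 to 4.75 on day 6, 4.17 to 4.67 on day 8 and 4.41 to 5.42 on day 10 in dSCs, above every iSC library except for 1 library of day 6. In bSCs it was 4.54 to 5.27, 4.95 to 5.51, 3.77 to 5.06 and 5.07 to 5.43 on days 4, 6, 8 and 10. Macrophage markers went from 302.4 to 1363.3 summed CPM in single iSCs to 11493.3 to 14115.5 in dSCs of day 4, and stood at 2634.5 to 13134.0 in dSCs and 1056.2 to 7906.1 in bSCs on day 6. Endothelial markers (6 of 6) went from 1339.4 to 3432.8 in iSCs to 220.2 to 461.9 in dSCs and 216.4 to 382.1 in bSCs of day 4. On day 8 they stood at 223.8 to 1010.0 in dSCs and 284.2 to 2532.4 in bSCs. Fibroblast markers (6 of 6) stood at 20935.6 to 27733.5 in iSCs. On day 6 the fibroblast sums were 22358.3 to 30969.2 in dSCs and 33945.7 to 42534.2 in bSCs, the reverse order of the pooled nerves. Neutrophil markers (3 of 4) went from at most 1.11 to 33.8 to 55.0 in dSCs and 18.8 to 57.6 in bSCs of day 4. Schwann cell markers (6 of 6) stood at 841.3 to 2521.9 in iSCs and 278.1 to 1636.3 in dSCs of day 2. Their part in the time course was not tested.

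**Figure D3:**
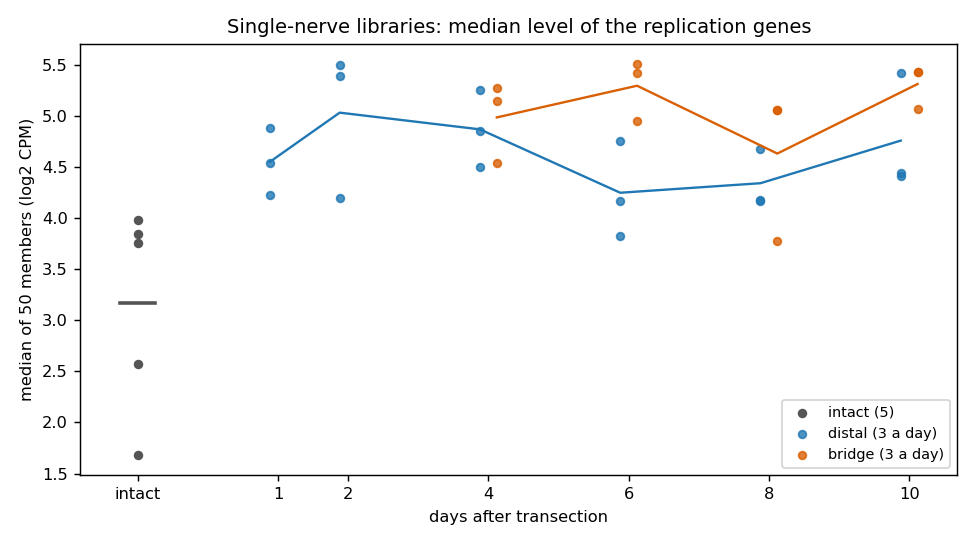
Median level of the 50 members (log2 CPM) in each single-nerve library by days after transection, with lines through the means of 3 libraries and a bar for the mean of the 5 iSC libraries. The mean of dSCs is highest on day 2, where 1 library is low, and lower from day 6. That of bSCs lies above it on all 4 days, with overlapping libraries on days 4, 8 and 10.

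In dSCs the median difference from iSCs was 0.65 on day 1, 1.47 on day 2, 1.10 on day 4, 0.51 on day 6, 0.46 on day 8 and 0.95 on day 10, against medians of -0.07 to 0.00 over all 15519 genes tested. Without iSC replicates 0 and 1 these became 0.6, 1.4, 0.88, 0.15, 0.39 and 0.99. Without the dSC library of few genes the median was 0.80 on day 1 and 1.78 on day 2, with no call on either. Called higher by edgeR were Mcm5 and Tk1 on day 4, where 1.21% of all genes were. No member was called on the other days, where 0.18%, 0.374%, 0.477%, 0.277% and 0.322% of all genes were. At an unadjusted p under 0.05, 4, 15, 8, 3, 1 and 8 of the 50 were higher over the 6 days, beside 4.29%, 6.26%, 8.05%, 6.24%, 5.11% and 5.35% of all genes. DESeq2 called 1, 3, 3, 1, 0 and 2 on the 6 days, and its shares of all genes are not given here. Without iSC replicates 0 and 1 together, edgeR called Orc6 and Pcna on day 2. Day 4 kept no call without both, without iSC replicate 0 or 5, or without any 1 of its own 3 libraries, and 1 without iSC replicate 4. Leaving out iSC replicate 3 alone gave 1 call, Tk1, on each of days 2, 6 and 10, and leaving out iSC replicate 0 gave 1, Orc6, on day 2. By the rule that onset is the first day called higher than iSCs, onset in dSCs was day 4 for 2 members and could not be given for 48.

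Seen without a test, 25 of the 50 members had a day on which all 3 dSC libraries lay above all 5 iSC libraries, beside 15.9% of all genes. The first such day was day 1 for 8 members, day 2 for 8, day 4 for 7 and day 10 for 2. On day 1 these 8 were Gmnn, Mcm2, Mcm3, Mcm5, Mcm7, Gins2, Ccne2 and Pold1. Over the 6 days this held for 8, 12, 11, 4, 1 and 7 members, beside 2.91%, 4.07%, 6.9%, 5.73%, 6.13% and 4.7% of all genes. Mcm5, a subunit of the helicase, showed this on every day but day 6. Its CPM were 0.14, 0, 11.6, 13.2 and 10.2 in iSCs, and 46.6, 90.5 and 56.2 on day 1, 63.5, 65.0 and 86.2 on day 2 and 54.1, 45.7 and 137.8 on day 4 in dSCs. It then measured 23.2, 8.29 and 83.7 on day 6, 23.4, 38.7 and 25.1 on day 8 and 100, 39.6 and 30.1 on day 10. Thus the dSC libraries of Mcm5 exceeded all iSC libraries on every day but day 6, and on day 4 the log2 difference was 3.47 ± 0.91 (adjusted p = 0.0401 by edgeR).

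Tk1 was at 0, 0, 10.6, 4.12 and 0.051 CPM in single iSC libraries, 25.3, 6.61 and 10.3 on day 1, 3.09, 42.7 and 43.8 on day 2 and 29.9, 61.5 and 46.4 on day 4 in dSCs. On days 6, 8 and 10 it was at 46.4, 42.1 and 34.4, at 13.6, 15.7 and 7.59, and at 44.5, 34.0 and 22.2. On days 4, 6 and 10 all dSC libraries of Tk1 were above all iSC libraries, and on days 1, 2 and 8 they overlapped. The log2 difference on day 4 was 3.93 ± 1.07 (adjusted p = 0.0499 by edgeR). Rrm2 was at 18.2 to 32.7 CPM on day 1, overlapping iSCs (0 to 32.3), and at 98.4, 107.9 and 118.5 on day 2.

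The highest group mean of dSCs fell on day 2 for 24 members and on day 4 for 12, on day 10 for 6, on day 1 for 4 and on days 6 and 8 for 2 each. Without the 2 dSC libraries of few genes it fell on day 2 for 40 members and on day 4 for 6. It fell on days 1 and 8 for 2 each and on days 6 and 10 for 0. Day 2 then rested on replicates 3 and 4, which had the most genes detected of all single-nerve libraries (15284 and 15815). Peak days of all genes were not counted, so no peak day can be called particular to the members. No member differed between days 4 and 2 or between days 10 and 4 by edgeR or DESeq2, with 1 (lower) and 0 of the 50 at an unadjusted p under 0.05, and the median differences were -0.32 and -0.10. An F test over iSCs and all dSC days called no member, where 0.767% of all genes were, and 6 of the 50 members had an unadjusted p under 0.05, beside 11.4% of all genes. Mcm5 had the lowest adjusted p among members (0.335 in edgeR).

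In bSCs the median difference from iSCs was 1.22 on day 4, 1.85 on day 6, 0.98 on day 8 and 1.78 on day 10, and 1.28, 1.67, 0.95 and 1.75 without iSC replicates 0 and 1. Called higher by edgeR were Tk1 on day 4 (1.13% of all genes), Mcm3, Mcm5, Mcm6, Pold1 and Rrm2 on day 6 (0.818%), no member on day 8 (0.245%) and Mcm3, Mcm5, Mcm6, Rfc5, Rrm2 and Tk1 on day 10 (0.889%). At an unadjusted p under 0.05, 14, 21, 8 and 20 members were higher on the 4 days, beside 7.3%, 7.58%, 5.21% and 6.82% of all genes. All 3 bSC libraries lay above all iSC libraries in 15, 22, 3 and 19 members, beside 5.55%, 6.23%, 3.82% and 4.61%. DESeq2 called 5, 17, 1 and 10, again without its shares of all genes, so these counts cannot be set against the shares above. Without iSC replicates 0 and 1 the counts by edgeR were 0, 1, 0 and 6, with Rrm2 remaining on day 6. Day 6 kept no call without its replicate 3, 1 without its replicate 1, 2 without its replicate 0 or iSC replicate 0, 1 or 4 and 3 without iSC replicate 5. Day 10 kept none without its replicate 0 or 3 and 3 without iSC replicate 0, 3, 4 or 5, and day 4 kept none without any 1 of its own libraries or iSC replicate 0, 1 or 4.

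Rrm2 in bSCs was at 146.8, 41.8 and 110.2 CPM on day 4, 169.0, 168.0 and 337.5 on day 6, 93.6, 78.4 and 9.04 on day 8 and 118.0, 120.0 and 288.8 on day 10, against 19.4, 0, 26.4, 32.3 and 12.3 in iSCs. All bSC libraries of Rrm2 but the last of day 8 exceeded iSCs, and the log2 difference on day 6 was 3.63 ± 0.78 (adjusted p = 0.0134 by edgeR). Mcm6 in bSCs was at 174.2, 96.3 and 203.2 on day 4, 219.8, 183.9 and 221.1 on day 6, 136.3, 77.1 and 5.44 on day 8 and 174.3, 156.0 and 354.0 on day 10, with 0.279 to 47.6 in iSCs. The same library of day 8 (replicate 2) was thus the lowest for both genes, and its median member level (3.77) lay within the range of iSCs. The highest mean of bSCs fell on day 10 for 27 members, on day 6 for 19, on day 4 for 3 and on day 8 for 1. Here too, peak days of all genes were not counted. Days 10 and 4 of bSCs did not differ for any member by edgeR or DESeq2, with 1 member higher at an unadjusted p under 0.05 (3.27% of all genes) and 44 of 50 differences above 0 (median 0.54).

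**Figure D4:**
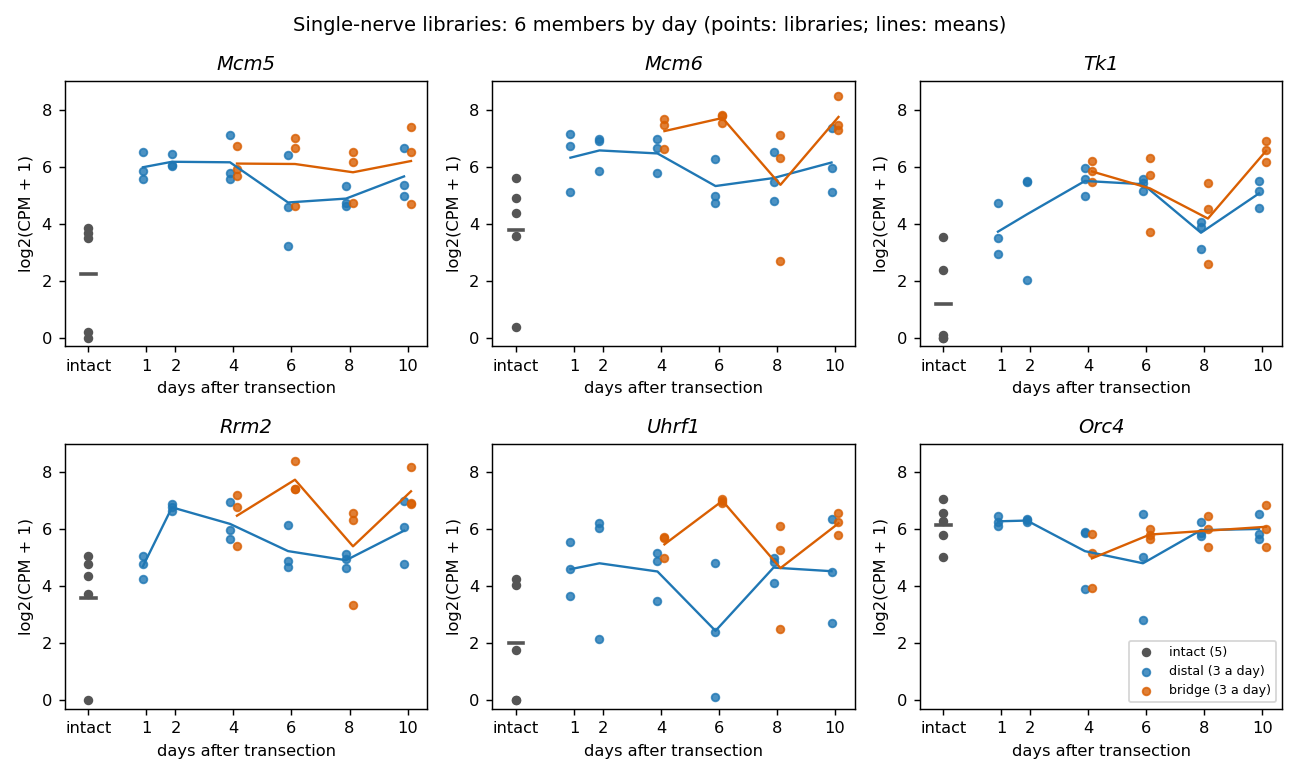
Levels of 6 members as log2(CPM + 1) in single-nerve libraries by day, with points for libraries and lines for group means. The dSC libraries of Mcm5 exceed all iSC libraries on day 1 and those of Rrm2 on day 2, while Orc4 overlaps iSCs throughout.

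The difference between bSCs and dSCs in single nerves had the direction of the pooled nerves, yet no member passed on any day. Its median was 0.19 on day 4, 1.14 on day 6, 0.44 on day 8 and 0.78 on day 10, with 28, 47, 38 and 43 of 50 members higher in bSCs, against medians of -0.01 to 0.02 over all genes. The edgeR test called 0 members on each day, with 0, 9, 0 and 1 of the 50 higher at an unadjusted p under 0.05 (1.17%, 3.08%, 0.593% and 1.09% of all genes), and DESeq2 called 1 on day 6 and 0 on the others. Over all genes, none was called higher on any of these days (0.0%). Day 6 was where bSC and dSC libraries separated most often: in 18 members all 3 bSC libraries exceeded all 3 dSC libraries, beside 7.6% of all genes, against 1, 2 and 8 members on days 4, 8 and 10 (beside 1.62%, 4.36% and 6.82%).

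Averaged over the 4 days, 44 members were higher in bSCs (median 0.68, beside -0.03 over all genes) and 13 had an unadjusted p under 0.05 (3.03% of all genes were higher by that rule), none of which passed the adjustment in edgeR or DESeq2. With the animal as a block, on the 10 pairs of bSC and dSC libraries that share an animal in every label, Mcm4, Mcm7 and Rrm1 were called higher in bSCs, 3 of 50 beside 0.13% of all genes. The 4 days had equal weight there, so the single pair of day 10 weighed more than any other pair. A further bSC library of day 10 (replicate 0) was left out, since its title carries another replicate number than its animal label. In 20 of the 50 members (40.0%) bSCs were higher in at least 8 of the 10 pairs, as were 9.34% of all genes. Mcm7 was higher in 9 of 10 pairs (mean paired log2 difference 1.05 ± 1.07, SD), as were Mcm5, Cdc45, Gins2, Ccne2, Tyms and Uhrf1. E2f1 was higher in 3 of 10 and its mean was lower in bSCs on all 4 days.

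By pair, the median member differed by 0.30, 0.00 and -0.06 on day 4, by 1.75, 1.36 and 0.87 on day 6, by 0.85, 0.51 and -0.50 on day 8 and by 1.15 in the single pair of day 10. The bSC library left out of day 10 differed by 0.35 from the dSC library of its animal label and by 1.47 from that of its title number. All 3 pairs of day 6 were thus higher in bSCs, and those of days 4 and 8 were mixed.

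Day 6 was measured in both experiments, which share no library. Of the 12 members called higher in bSCs than in dSCs in the pooled nerves, all 12 were higher in the single nerves too, 6 of them at an unadjusted p under 0.05, with median log2 differences of 2.15 (pooled) and 1.82 (single). Of all 318 genes called higher there, 266 (83.6%) were higher in the single nerves. Of the 23 members called in bSCs against iSCs, 21 were higher in single nerves, 16 at an unadjusted p under 0.05 and 3 past adjustment (657 of all 996 such genes, 66.0%, were higher). Of the 4 called in dSCs, 3 were higher and 1 passed an unadjusted p under 0.05, beside 81.2% of all such genes higher.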

How the data were processed

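SCs were sorted on tdTomato and libraries were made by Smart-seq2. The authors aligned reads with TopHat2 2.0.11 to mm9, counted them per gene with HTSeq 0.6.1 and deposited raw counts per gene and lane. Here lanes of a library were summed, and 92 ERCC spike-ins and HTSeq's categories for reads on no gene were set aside, which left 39.13% to 47.11% of uniquely aligned reads on genes. Without strand in Smart-seq2, overlapping genes cannot be told apart. Chi-square per degree of freedom between replicates was at least 42.5, and 0 pairs of libraries were identical. Groups came from the sample labels. The rat cultures of the series were not used here. One Schwann cell marker is not reported here.

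Counts were tested with edgeR 4.0.16 in R 4.3.3 (TMM, filterByExpr with a minimum count of 10, quasi-likelihood test, Benjamini-Hochberg adjustment over all genes tested), with 1 fit of the 12 pooled libraries and 1 of the 35 single-nerve libraries. Standard errors are the log2 fold change over the square root of F. Log2 CPM used a prior count of 2. In single nerves the study's own minimum (100 counts in 85% of libraries) served as an alternative, since it would leave 31 members. Promoter sequences came from RefSeq's GRCm38.p6, and the counts from mm9.

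Per-library values are given for the member of each role with the highest mean log2 CPM in the pooled libraries, for the 5 largest and 5 smallest differences in dSCs against iSCs and in bSCs against dSCs, and for further members singled out after their values were seen. Of the other replication genes, the 3 largest and 3 smallest differences in dSCs are named. Members and lists were chosen with earlier results of these data known.

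Pairing came from the animal of the labels. In the pooled libraries, deviations from group means in libraries of the same pool correlated at a mean r of -0.0143 (10 pairs, across genes), and in single nerves of the same animal at 0.157 (10 pairs). iSC pool 4 has no partner, so with the block it adds nothing to the comparisons. Pool 3 has no iSC library, so it adds to comparisons with iSCs only indirectly, through its dSC and bSC libraries. Alternatives were DESeq2 1.42.0, DESeq2 size factors, no filter, each library left out, the replicate block, a term for lanes, fits of the groups compared alone and, chosen after seeing the data, the newer quasi-likelihood method of edgeR, a fit without iSC replicates 0 and 1, dSC peak days without 2 libraries of few genes and the day 10 pair left out of the 10.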

Additional observations from a re-analysis of the deposited data

Results flagged for a closer look

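In 104 groups of 4 or 5 libraries (the 25 named members and the median member level in pooled iSCs, dSCs, bSCs and single iSCs), 14 held a library far from the others by Dixon's test at 95%. Its chance rate of about 1 in 20 assumes normal values and cannot be set beside this count. For Cdc7 in pooled bSCs and E2f2 in pooled iSCs, all other libraries lay at the floor. Some members were also named for large differences in these same libraries. Values are log2 CPM with a prior count of 2.

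In pooled iSCs these were Mcm7 in pool 5 (3.98, others 4.81 to 4.98), Mcm10 in pool 2 (1.18, others -2.92 to -2.27), Rfc4 in pool 4 (4.06, others 2.59 to 2.82), Rrm2 in pool 5 (-2.23, others 2.58 to 3.34) and E2f2 in pool 1 (-0.74, others at -2.92). In pooled dSCs Prim1 was low in pool 1 (-2.92, others 3.07 to 4.11). In pooled bSCs Cdc7 was high in pool 2 (5.04, others at -2.92) and Dbf4 low in the same library (-2.92, others 3.92 to 4.93).

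In single iSCs, replicate 0 was low for Mcm7 (-0.53, others 3.74 to 5.33) and Rfc4 (1.86, others 3.52 to 4.13). Replicate 1 was low for Lig1 (-2.88, others 2.85 to 4.03), Rrm1 (-2.88, others 5.43 to 6.36) and Rrm2 (-2.88, others 3.64 to 5.02). Orc1 was high in replicate 4 (1.25, others -2.88 to -2.42). Replicates 0 and 1, which hold 5 of these 6, are the iSC libraries with the fewest genes detected. The cause of each was not tested.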

How the results depend on the processing

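Counts of members called moved with the test. Shares of all genes called are given above for the main fits and the replicate block only. For other settings the counts show only how the calls of members moved. In pooled nerves (dSCs against iSCs, bSCs against iSCs, bSCs against dSCs; main 4, 23 and 12), the replicate block gave 2, 9 and 5, and the fit of the groups compared alone gave 1 for dSCs against iSCs. DESeq2 gave 19 and the newer quasi-likelihood method 23 for bSCs against dSCs. Leaving out 1 library gave 1 to 5, 13 to 22 and 2 to 12.

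In single nerves, dSCs on days 1, 2, 4, 6 and 10 (main 0, 0, 2, 0 and 0) had 1, 3, 3, 1 and 2 calls by DESeq2 and 1, 4, 5, 1 and 2 by the newer method. Size factors of DESeq2 gave 1 on day 4. bSCs on days 4, 6, 8 and 10 (main 1, 5, 0 and 6) had 5, 17, 1 and 10 by DESeq2 and 5, 15, 1 and 13 by the newer method. bSCs on day 4 had 3 without a filter and 2 with the filter of the study, and on day 10 there were 2 with size factors, which moved the median of all genes from -0.06 to -0.27 and that of the members from 1.78 to 1.56. Without iSC replicates 0 and 1, dSCs had 2 on day 2 and 0 on day 4, and bSCs 0 on day 4 and 1 on day 6. Leaving out 1 library gave 0 to 1 for dSCs on days 2, 6 and 10, 0 to 2 on day 4, and for bSCs 0 to 1, 0 to 4 and 0 to 6 on days 4, 6 and 10. For bSCs against dSCs, DESeq2 gave 1 on day 6, and the replicate block by animal gave 3 over days 4 to 10 and 0 on each single day. The cause of these moves was not tested.

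Among uncalled members, the sign of bSCs against dSCs turned for Cdc7 (-6.3 with the replicate block, -0.3 with lanes) and Dbf4 (-0.44 with the replicate block, -0.23 with lanes). Leaving out 1 library gave -9.73 to 0.87 for Cdc7 (below 0 without bSC pool 2, dSC pool 1 or dSC pool 2), -0.25 to 0.76 for Dbf4 (below 0 without bSC pool 3, bSC pool 5 or dSC pool 3) and, for Ccne1 in dSCs against iSCs, -5.36 to 0.37 (above 0 without iSC pool 5). The F test was run in 1 setting. Intervals cover counting and library spread only, and single-nerve groups of 3 limit what could be called.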
